A study of Mus musculus with 12 samples.

Results

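miR-31-5p and miR-31-3p (rows mmu-mir-31-5p and mmu-mir-31-3p) are the mature RNAs cut from the 5′ and 3′ arms of 1 hairpin, miR-31. They are 2 of the 1251 miRNA rows that the authors deposited, and were chosen by name, with earlier results of these data known. Both were above the detection floor often enough to be among the 544 rows tested. The levels come from small RNA sequencing of 12 mouse libraries of the C57Bl6 strain in 4 groups. Squamous cell carcinoma of the skin (SCC) came from TAp63-/- mice (here TAp63 KO, n = 4) and from wild-type mice (WT, n = 2), all older than 35 weeks and exposed to repeated ultraviolet radiation (UVR) at 2.5 kJ per square metre, 3 times a week. Dorsal skin came from TAp63 KO (n = 3) and WT mice (n = 3) that were untreated and 4 weeks old. TAp63 is the isoform of the transcription factor p63 that carries the transactivation domain. The labels do not say whether the knockout is limited to a cell type, or that each library is a separate mouse, so p-values measure the spread between these libraries. Tumour, older age and UVR go together and cannot be told apart. The sample titles also carry 1 prefix for all tumours and another for all skin libraries, so any batch that the prefix may mark cannot be told apart from tissue. In pieces of whole tissue fewer cells of a type and less RNA per cell cannot be told apart.

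A miRNA hairpin is cut by Dicer into a short duplex, and 1 strand, the guide, is kept by an Argonaute protein while the other, the passenger, is mostly lost. The guide finds messenger RNAs mainly through its seed, bases 2 to 8. For miR-31 the 5p arm is the usual guide. In skin miR-31 is known from growing hair follicles, wound edges and psoriatic keratinocytes, and it is abundant in squamous carcinomas. Its known targets include Rasa1, a negative regulator of Ras, Hif1an, an inhibitor of the hypoxia response, and the Hippo kinase Lats2. Messenger RNAs were not measured in these libraries.

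The sequences are shown because both arms rose together from 1 precursor and because their seeds define which transcripts each could reach. Capitals mark the seed in the mature arms, and both mature arms in the hairpin, which is written 5′ to 3′ (RefSeq, GRCm38.p6).
miR-31-5p: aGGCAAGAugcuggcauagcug
miR-31-3p: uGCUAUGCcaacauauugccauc
miR-31 hairpin: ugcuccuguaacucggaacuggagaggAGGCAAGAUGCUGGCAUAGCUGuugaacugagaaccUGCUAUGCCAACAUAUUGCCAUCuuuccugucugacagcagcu
Neither seed occurred at bases 2 to 8 of any other of the 1679 named mature mouse miRNAs in the same reference. The 2 arms have different seeds and so differ from each other in this respect as well. In the predicted minimum free energy fold of the hairpin (-48.7 kcal per mol), 17 of the 22 bases of the 5p arm paired with bases of the 3p arm. The hairpin lies at chr4:88910557-88910662 on the minus strand, the 5p arm at chr4:88910614-88910635 and the 3p arm at chr4:88910577-88910599. It is inside exon 3 of a long intergenic noncoding RNA on the same strand (AL805899.1, exon at chr4:88909855-88910710). Ifne, an epithelial type I interferon gene, and 6 Ifna genes lie within 100 kb, and no other annotated miRNA hairpin does. The nearest, Mir491, is 788 kb away, so miR-31 is not part of a miRNA cluster.

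All levels are the authors' log2 values, scaled so that every library has nearly the same set of values and with low values set to a floor at a linear value of 10 (log2 3.32). A level therefore mirrors the rank of a miRNA in its library, and read depth is not known. The libraries had 370 to 545 miRNAs above the floor. No pair of libraries held identical values. The keratinocyte miRNA miR-205-5p was at 16.29 or higher in all 12 libraries.

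miR-31-5p was far more abundant in the carcinomas. Its log2 level was 14.74, 17.40, 17.999 and 16.09 in TAp63 KO SCC replicates 1 to 4 and 15.72 in both WT SCC libraries. It was 9.69, 12.53 and 13.27 in TAp63 KO skin and 13.08, 12.59 and 12.002 in WT skin. All 6 tumours lay above all 6 skin libraries, with a gap of 1.47 between the lowest tumour, TAp63 KO SCC replicate 1, and the highest skin library, TAp63 KO skin replicate 3. Tumours above all skin libraries were found for 57 of the 544 tested miRNAs (10.5%). By rank, miR-31-5p stood between 6th and 35th of all miRNAs in the tumours and between 60th and 148th in skin. In TAp63 KO SCC replicate 3 it made up 4.32% of the summed linear values, against at most 0.163% in any skin library. Such a share restates the rank, because all libraries hold nearly the same set of values. The equal values of the WT tumours come from the scaling, since miR-31-5p held rank 23 in both.

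miR-31-3p, the passenger arm, followed the same order at a lower level. Its log2 level was 9.86, 11.50, 13.27 and 10.98 in TAp63 KO SCC replicates 1 to 4, and 10.75 and 10.08 in WT SCC. It was 3.32, 6.38 and 8.18 in TAp63 KO skin and 8.07, 6.97 and 5.08 in WT skin. The groups again did not overlap between tissues, and the gap was 1.68. The value of 3.32, in TAp63 KO skin replicate 1, is the floor, so the true level there may be lower. In TAp63 KO SCC replicate 3 the passenger arm held rank 60, the rank that the guide arm held in TAp63 KO skin replicate 3.

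**Figure D1:**
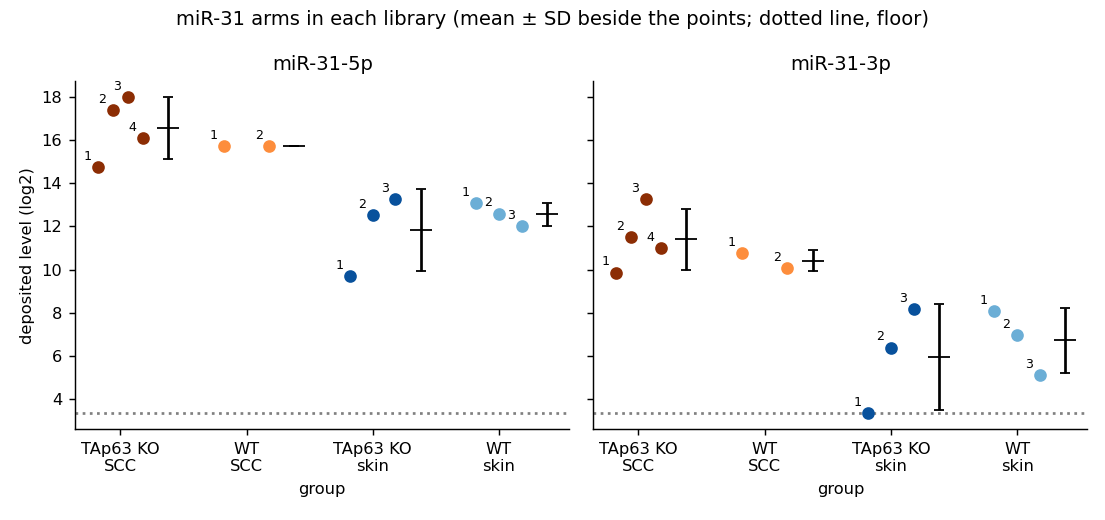
Deposited log2 levels of miR-31-5p (left) and miR-31-3p (right) in each of the 12 libraries, by group, with the replicate number at each point. Bars to the right of the points are the mean ± SD and the dotted line is the floor at 3.32. All tumours sit above all skin libraries for both arms, and TAp63 KO skin replicate 1 is the lowest library in both panels.

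By group mean, miR-31-5p was at 16.56 ± 1.45 (SD, n = 4) in TAp63 KO SCC, 15.72 in WT SCC (n = 2), 11.83 ± 1.89 (SD, n = 3) in TAp63 KO skin and 12.56 ± 0.54 (SD, n = 3) in WT skin. In the same groups miR-31-3p was at 11.40 ± 1.42 in TAp63 KO SCC, 10.42 ± 0.48 in WT SCC, 5.96 ± 2.46 in TAp63 KO skin and 6.71 ± 1.51 in WT skin. For both arms TAp63 KO SCC was thus highest and TAp63 KO skin lowest. Within a tissue the genotypes overlapped for both arms, so neighbours in this order did not differ beyond their spread except at the step between WT SCC and WT skin, whose values did not overlap.

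Both arms rose in SCC against skin when the effect was averaged over the genotypes. miR-31-5p was 15.4-fold higher, at 3.95 ± 0.68 (log2, SE; limma, adjusted p = 0.000851). miR-31-3p was 23.9-fold higher, at 4.58 ± 0.86 (limma, adjusted p = 0.00152). Of the 544 miRNAs tested, 41.9% were called in this comparison at an adjusted p under 0.05, 20.4% higher and 21.5% lower, so a call by itself was common. The sizes were among the largest: miR-31-3p ranked 3rd and miR-31-5p 5th by log2 rise, and 4th and 7th without TAp63 KO skin replicate 1. Their precision was low, since their standard errors were among the largest of all tested miRNAs, and by p-value they ranked only 85th and 68th.

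In TAp63 KO mice the tumours had 4.73 ± 0.87 more miR-31-5p than skin (log2, SE; limma, adjusted p = 0.00204) and 5.44 ± 1.11 more miR-31-3p (limma, adjusted p = 0.00363). By log2 rise miR-31-3p ranked 1st and miR-31-5p 3rd in this comparison. In all, 34.2% of tested miRNAs were called here, and 16.0% were called higher. TAp63 KO skin replicate 1, the library with the lowest miR-31, widened these changes. Without it they were 3.66 (limma, adjusted p = 0.00816) and 4.12 (limma, adjusted p = 0.0166), and the ranks were 6th and 3rd. The 3p arm also lost the first rank without TAp63 KO SCC replicate 3.

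In WT mice neither arm passed the threshold. miR-31-5p differed by 3.17 ± 1.04 between WT SCC and WT skin (log2, SE; limma, adjusted p = 0.0563) and miR-31-3p by 3.71 ± 1.32 (limma, adjusted p = 0.0789), where 18.2% of tested miRNAs were called, 8.82% higher and 9.38% lower. Both WT tumours were above all 3 WT skin libraries for each arm, as they were for 20.6% of tested miRNAs. The call depends on how the spread is estimated. Fitted on the WT groups alone, where the tied tumour values of miR-31-5p have no spread, this arm had an adjusted p of 0.0372 and miR-31-3p of 0.125 (limma). With all groups but without TAp63 KO skin replicate 1, these were 0.0226 and 0.0349. miR-31-5p also passed without TAp63 KO SCC replicate 1 (limma, adjusted p = 0.0363) or replicate 3 (limma, adjusted p = 0.0485). With any of the other 9 libraries left out miR-31-5p did not pass, with an adjusted p of up to 0.249 (limma, without WT SCC replicate 1). miR-31-3p did not pass with any of the other 11 left out, with an adjusted p of up to 0.343 (limma, without the same library).

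**Figure D2:**
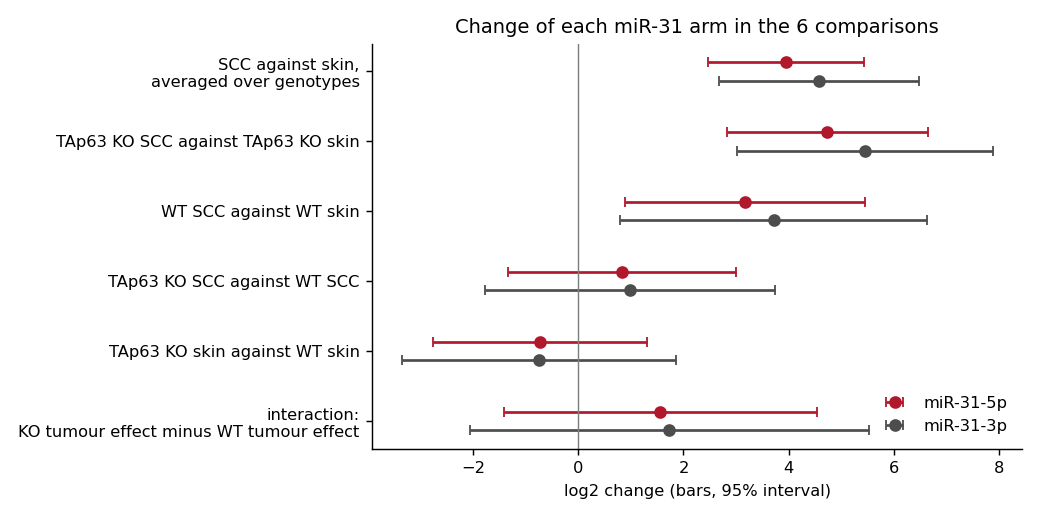
Log2 change of miR-31-5p (red) and miR-31-3p (grey) in each comparison, named at the left with the group on top of the fold change first. Bars are 95% intervals from the limma fit. The intervals of tumour against skin lie above 0, the WT ones included before adjustment for all tested miRNAs, and those of the genotype comparisons and of the interaction include 0.

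Loss of TAp63 had no detectable effect on either arm at this number of libraries. TAp63 KO SCC exceeded WT SCC by 0.84 for miR-31-5p (95% interval -1.33 to 3.00; limma, adjusted p = 0.828) and by 0.99 for miR-31-3p (-1.77 to 3.74; limma, adjusted p = 0.828). The WT tumours fell inside the range of the TAp63 KO tumours. Without TAp63 KO SCC replicate 1 the differences were 1.44 and 1.4996, and without replicate 3 they were both 0.36. Without replicate 2 the miR-31-5p difference was 0.55, and without WT SCC replicate 2 the miR-31-3p difference was 0.65. Only 0.184% of tested miRNAs, 1 of 544, were called in this comparison, with 46 at an unadjusted p under 0.05.

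In untreated skin the difference between TAp63 KO and WT was -0.73 for miR-31-5p (-2.77 to 1.32) and -0.75 for miR-31-3p (-3.35 to 1.85), with an adjusted p of 1 for both (limma). None of the 544 miRNAs was called by limma here, and 31 had an unadjusted p under 0.05. The sign rests on 1 library: without TAp63 KO skin replicate 1 the differences were 0.34 and 0.57. The test of whether the tumour effect differs between genotypes gave 1.56 ± 1.35 for miR-31-5p and 1.73 ± 1.73 for miR-31-3p (log2, SE; limma, adjusted p = 0.838 and 0.849). No miRNA was called in it, and 41 had an unadjusted p under 0.05. The intervals reach from -1.41 to 4.54 and from -2.06 to 5.53, wide enough to hold a difference as large as the WT effect itself. With 1 library left out the interaction ranged from 0.49 to 2.28 for miR-31-5p and from 0.41 to 2.84 for miR-31-3p. In both the lowest value came without TAp63 KO skin replicate 1 and the highest without TAp63 KO skin replicate 3.

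The spread of miR-31 between libraries of 1 group was itself large. The pooled within-group SD was 1.32 (log2) for miR-31-5p, larger than for 96.3% of tested miRNAs, and 1.69 for miR-31-3p, larger than for 98.9%. The median was 0.52. Among the 218 tested miRNAs in the upper 40% by mean level, 5 varied more than miR-31-5p and 2 more than miR-31-3p. Across the TAp63 KO tumours the guide arm spanned 9.59-fold and the passenger arm 10.6-fold.

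In the TAp63 KO tumours the level of miR-31 followed how many miRNAs a library detected. These tumours had 432, 489, 545 and 476 miRNAs above the floor in replicates 1 to 4, which is the order of their miR-31-5p and miR-31-3p levels. TAp63 KO skin replicate 1 had the fewest of all libraries, 370, and the lowest level of both arms. None of the other groups followed this order in full. WT skin replicate 1 detected the fewest of its group, 390, with the highest level of both arms. TAp63 KO skin replicate 2 detected more than replicate 3, 465 against 439, with less of both, and WT SCC replicate 2 more than replicate 1, 420 against 402, with less miR-31-3p. Libraries of near-equal number can be set side by side. WT SCC replicate 1, with 402, had 15.72 of miR-31-5p, against 12.002 in WT skin replicate 3 with 403. TAp63 KO SCC replicate 1, with 432, had 14.74, against 12.59 in WT skin replicate 2 with 433 and 13.27 in TAp63 KO skin replicate 3 with 439. In each of these pairs the tumour was higher, as in any pair, since all tumours lay above all skin libraries. The pairs are therefore no test of the detected number.

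With the number of detected miRNAs as a covariate, an alternative chosen after seeing the data, the averaged tumour effect was 3.06 ± 0.44 for miR-31-5p and 3.63 ± 0.72 for miR-31-3p (log2, SE; limma, adjusted p = 0.000556 and 0.00346). In that fit both arms were called in TAp63 KO mice, at 3.02 and 3.61 (limma, adjusted p = 0.00805 and 0.0294), and also in WT mice, at 3.10 and 3.64 (limma, adjusted p = 0.00811 and 0.0298). The interaction was then -0.08 for miR-31-5p and -0.03 for miR-31-3p. TAp63 KO SCC was then below WT SCC, at -1.26 for each arm (limma, adjusted p = 0.792 and 0.845). The fit used the same slope for all groups, although none but the TAp63 KO tumours followed that order in full. Its values in WT mice and its interaction rest on that shared slope.

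**Figure D3:**
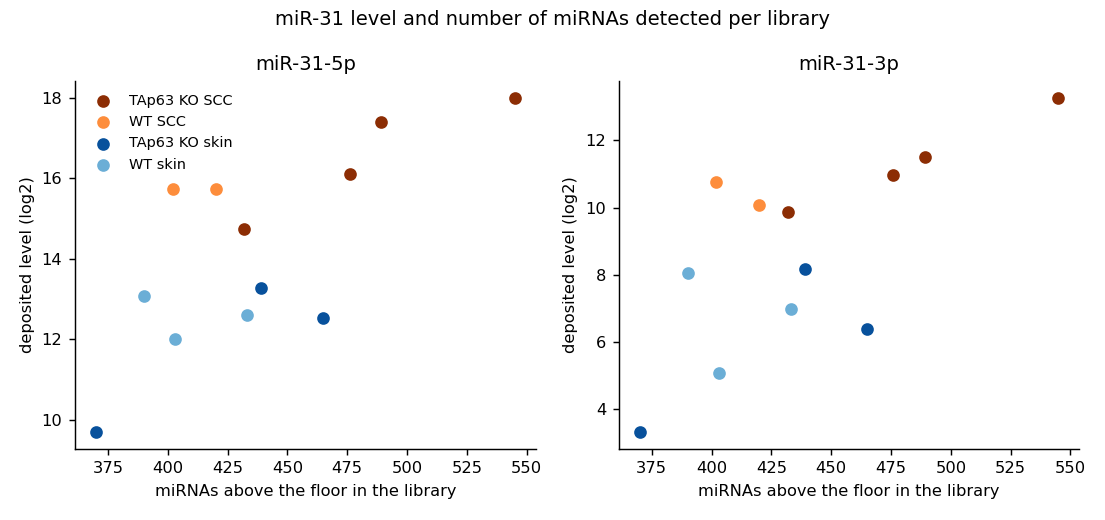
Deposited log2 level of each miR-31 arm against the number of miRNAs above the floor in the same library, coloured by group. Within the TAp63 KO tumours both rise together, and TAp63 KO skin replicate 1 is at the lower left. All tumours are above all skin libraries over the whole range, not only at near-equal numbers.

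No difference in the balance of the arms between tumours and skin passed its test. The guide arm exceeded the passenger arm 29.4-, 59.9-, 26.5- and 34.5-fold in TAp63 KO SCC replicates 1 to 4, and 31.3- and 49.9-fold in WT SCC. In skin the ratio was 82.7-, 70.9- and 34.1-fold in TAp63 KO libraries and 32.2-, 49.0- and 121-fold in WT libraries. The 82.7-fold value is a lower bound, because the passenger arm was at the floor there. These ratios overlapped widely between tissues, and the highest ones, in TAp63 KO skin replicates 1 and 2 and WT skin replicate 3, belong to the 3 libraries with the least passenger arm.

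On the log2 scale the balance, 5p minus 3p, averaged 5.205 ± 0.46 (SD, n = 6) in SCC and 5.86 ± 0.75 (SD, n = 6) in skin. With tissue permuted within genotype, the difference was -0.63 (exact permutation test, two-sided p = 0.157; 0.4 after Benjamini-Hochberg adjustment over 4 balance comparisons). The geometric mean ratio was 36.9 in SCC and 58.0 in skin. With 1 library left out the difference ranged from -0.84 to -0.36, the smallest without WT skin replicate 3. TAp63 KO tumours against TAp63 KO skin gave -0.71 (exact permutation p = 0.2, adjusted 0.4). TAp63 KO against WT gave -0.15 in SCC (exact permutation p = 0.867) and 0.02 in skin (exact permutation p = 1), where these group sizes cannot give a p below 0.0667 and 0.1.

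**Figure D4:**
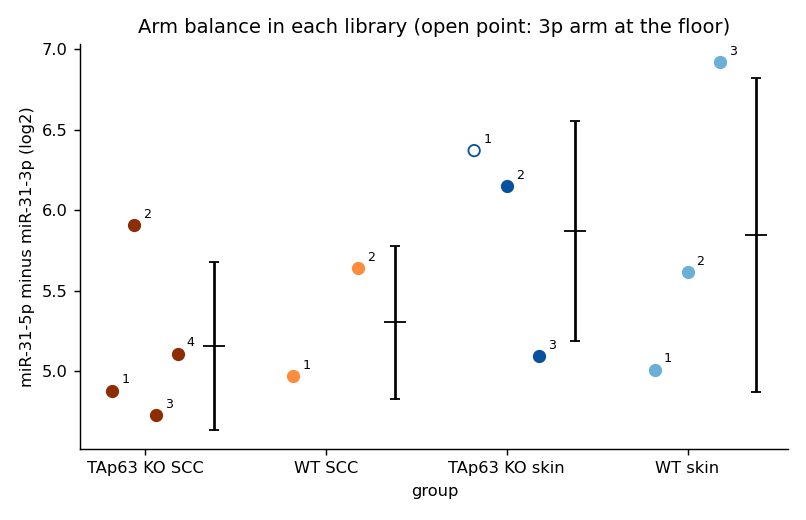
Log2 ratio of the arms (miR-31-5p minus miR-31-3p) in each library by group, with replicate numbers and the mean ± SD to the right. The open point is TAp63 KO skin replicate 1, where the 3p arm is at the floor and the ratio is a lower bound. The values lie between 4.73 and 6.92 and the groups overlap.

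Set beside other hairpins, miR-31 was at the top together with miR-21a by the joint rise of its arms. In 147 hairpins both arms were tested, and both were called higher in 18 of them (12.2%), both lower in 16 and in opposite directions in 3. The mean rise of both arms was 4.26 for miR-31 and 4.24 for miR-21a, a gap below the standard error of each of these arms, followed by miR-335 at 2.60, miR-18a at 2.37 and miR-3096b at 2.19. With 1 library left out, miR-21a was above miR-31 in 6 of 12 cases, among them without TAp63 KO skin replicate 1, where miR-31 had 3.66 and miR-21a 4.10. miR-21a is another abundant miRNA of squamous carcinomas, and miR-18a belongs to the growth-promoting miR-17 cluster. miR-3096b has a similarly named copy, miR-3096a, with nearly the same changes, so reads may be shared between them. In miR-21a the passenger arm rose by 5.57 and the guide arm by 2.91, a gap of 2.66. Its guide arm held the highest value, 19.9986 and shared by all libraries, in every tumour except WT SCC replicate 2. There it held the second highest, 19.2486. At the highest value it could not rise further on this scale. The gap in miR-21a may thus be overstated, and its mean rise, set beside that of miR-31 above, understated. In miR-31 the gap was 0.63, and 75 of the 147 hairpins had a larger change in balance in either direction.

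**Figure D5:**
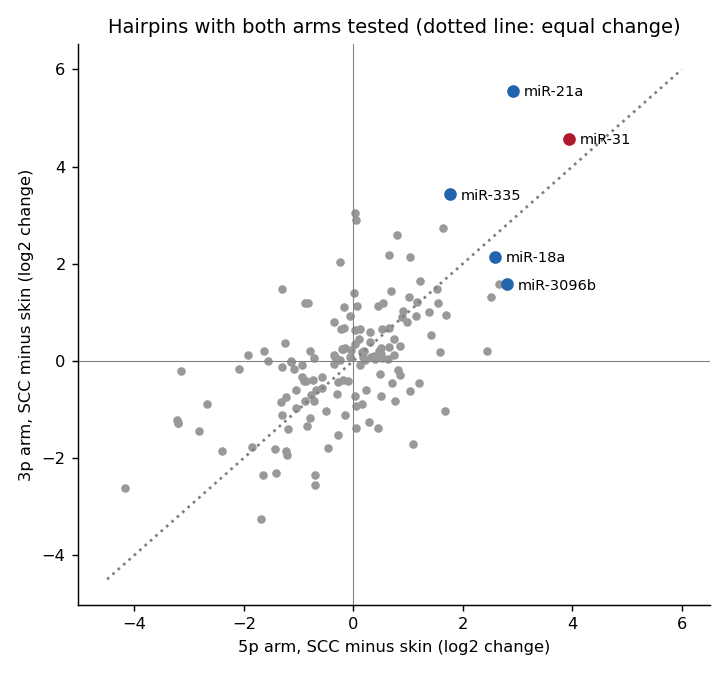
Log2 change of the 5p arm (horizontal) and the 3p arm (vertical) between SCC and skin, averaged over genotypes, for 147 hairpins with both arms tested. miR-31 (red) and the next 4 hairpins by mean change (blue) are named, and miR-31 lies close to the dotted line of equal change.

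Over the 12 libraries the miRNA most like miR-31-5p was miR-31-3p (Pearson r = 0.981). Next came miR-98-5p, a let-7 family member (0.975), miR-106b-5p of the miR-17 seed family (0.973) and the wound-linked miR-132-3p (0.922). For miR-31-3p the closest after its partner were miR-106b-5p (0.971), miR-98-5p (0.955) and miR-18a-5p (0.936). These are descriptions over 12 libraries that share the authors' scaling and fall into separate sets of tumours and skin. After subtraction of the 4 group means, the leading names for miR-31-5p were miR-98-5p (0.967), miR-132-3p (0.954), miR-31-3p (0.922) and miR-106b-5p (0.901), and for miR-31-3p they were miR-31-5p, miR-106b-5p (0.912), miR-132-3p (0.882) and miR-98-5p (0.880).

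The changes of these miRNAs were much smaller than those of miR-31. miR-98-5p rose by 0.80 ± 0.21, miR-106b-5p by 1.14 ± 0.23, miR-132-3p by 0.80 ± 0.28 and miR-18a-5p by 2.59 ± 0.42 in SCC against skin, averaged over genotypes (log2, SE; limma, adjusted p = 0.00952, 0.00237, 0.0413 and 0.000661). miR-98-5p had its highest level, 14.25, in TAp63 KO SCC replicate 3 and its lowest, 12.38, in TAp63 KO skin replicate 1, the libraries at the ends of the miR-31 range.

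Of 11 miRNAs linked to skin inflammation, wounds and hyperproliferation, 10 were tested, 5 rose and 2 fell in SCC against skin, and their median change was 1.05, against 0.04 over all tested miRNAs, of which 20.4% rose and 21.5% fell. The list was chosen with earlier results of these data known and holds both arms of miR-21a, so these shares are a description only. miR-21a-3p and miR-21a-5p rose most clearly (limma, adjusted p = 8.01e-06 and 2.70e-05), and miR-146a-5p, a brake on NF-kB signalling, fell by 2.50 ± 0.25 (limma, adjusted p = 2.70e-05). miR-155-5p was at the floor in all libraries. Of 9 keratinocyte and epithelial miRNAs, 2 rose and 2 fell, with a median of -0.29, a share close to the 41.9% called over all tested miRNAs. miR-205-5p rose by 1.55 ± 0.19, miR-27b-3p rose by 0.65 ± 0.19 and miR-184-3p fell by 2.66 ± 0.54 (log2, SE; limma, adjusted p = 1.06e-04, 0.0190 and 0.00251). Of 7 hair follicle regulators, 1 rose and 2 fell, with a median of -0.41, again close to that share. They were miR-205-5p, miR-218-5p, which fell by 1.78 ± 0.28, and miR-128-3p, which fell by 1.23 ± 0.26 (limma, adjusted p = 0.000533 and 0.00341).

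Relative to miR-205-5p of the same library the tissues were less cleanly separated. miR-205-5p itself rose by 1.55 in SCC against skin, and this scale subtracts that rise. The log2 difference of miR-31-5p minus miR-205-5p was -3.75, -0.32, -0.21 and -2.66 in TAp63 KO SCC and -1.998 and -2.28 in WT SCC. It was -7.09, -3.98 and -3.10 in TAp63 KO skin and -3.54, -3.70 and -4.61 in WT skin. TAp63 KO SCC replicate 1 was lower than 3 skin libraries on this scale, and the other 5 tumours were above all skin libraries. For miR-31-3p the same tumour, at -8.63, was below TAp63 KO skin replicate 3 (-8.20) and WT skin replicate 1 (-8.55). The other tumours were again above all skin libraries.

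Markers of other cell types also differed between tumour and skin, and their part in the miR-31 difference was not tested. Over all tested miRNAs 20.4% rose and 21.5% fell, and each list here holds 2 to 5 miRNAs. Of 5 striated muscle miRNAs 4 fell, with summed linear levels of 4750 to 31462 in SCC and 66537 to 90052 in skin. The other, miR-499-5p, went the opposite way, by 1.20 ± 0.55, without being called (log2, SE; limma, adjusted p = 0.110). In TAp63 KO mice 4 of the 5 were called lower and 1 higher. Both melanocyte miRNAs fell (88.4 to 1703 in SCC, 2326 to 6496 in skin). Of 4 leukocyte miRNAs 2 rose (15962 to 61587 in SCC, 18746 to 25786 in skin), as did 2 of 4 red cell miRNAs (17148 to 98152 in SCC, 35169 to 75009 in skin). Of 4 fibroblast miRNAs 2 fell (38531 to 67567 in SCC, 46212 to 68197 in skin), and 1 of 2 endothelial miRNAs rose (59939 to 92530 in SCC, 47443 to 62967 in skin). Of the keratinocyte markers, miR-205-5p rose and miR-203-3p fell by 0.60 ± 0.21 (log2, SE; limma, adjusted p = 0.0416), and their sum was 309282 to 567031 in SCC and 266525 to 383638 in skin. All these markers were above the floor in every library except miR-499-5p of the muscle list, which was above it in 5.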

How the data were processed

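Each of the 12 columns in the deposited table of log2 values carries the title of 1 sample. Per the submitters' processing notes, reads were placed on mm10. No source used here names the aligner, counter or normalization. The deposited values look quantile normalized, with a floor (linear value 10) that holds 647 of the 1251 rows in every library. Counts are not kept, so counting error cannot be computed.

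A miRNA entered the tests if 2 or more libraries held it above the floor, which left 544. They were fitted with limma 3.58.1 in R 4.3.3 on the log2 values as deposited, with 1 mean per group and moderated variances (trend and robust settings). Benjamini-Hochberg adjustment ran over all tested miRNAs within a comparison, and an adjusted p under 0.05 was called. Arm balance was tested by exact permutation. The code was tested on simulated data. The members and lists were chosen with earlier results of these data known.

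The text names both arms, the 3 miRNAs most like each by each measure, the 3 members of each skin list with the smallest p and the 5 hairpins with the largest rise of both arms, beside others chosen after their values were seen. The hairpin was folded with ViennaRNA 2.7.2. Sequences are from RefSeq (GRCm38.p6) and gene positions from GENCODE on GRCm38, the assembly that mm10 names. Alternatives covered filters, pseudocounts of 1 and 10, scaling, variance settings, library weights, fits of the compared groups alone, each library left out and, added after seeing the data, a covariate for the number of miRNAs above the floor.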

Additional observations from a re-analysis of the deposited data

How the results depend on the processing

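The rises of both arms averaged over genotypes and in TAp63 KO mice kept their direction and their call under every alternative run, and with 1 library left out they were 3.41 to 4.31 and 3.66 to 5.45 for miR-31-5p and 3.92 to 5.13 and 4.12 to 6.55 for miR-31-3p. Median-ratio scaling shifted the median over all tested miRNAs to 0.16, against 0.04. In WT mice miR-31-5p passed the threshold under the 6-library filter on low values (3.17), under median-ratio scaling (3.31), with the WT groups alone (3.17) and with the covariate (3.10), as did miR-31-3p with the covariate (3.64). The covariate turned TAp63 KO against WT SCC to -1.26 for each arm and the interaction to -0.084 and -0.030. With 1 library left out, WT SCC against WT skin was 2.89 to 3.43 and 2.90 to 4.39, TAp63 KO against WT skin -1.45 to 0.34 and -1.86 to 0.57 (positive without TAp63 KO skin replicate 1), and arm balance of TAp63 KO against WT -0.48 to 0.19 in SCC and -0.40 to 0.56 in skin, where a pseudocount of 10 gave -0.20. The balance of SCC against skin was -0.35 with that pseudocount, and in TAp63 KO mice -0.32, and -1.10 to -0.46 with 1 library left out.

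The number of miRNAs called in WT SCC against WT skin was 99, but 62 with the WT groups alone and 32 to 118 with 1 library left out, falling to 32 when WT SCC replicate 1 was dropped and to 65 or 61 when replicate 1 or 2 of WT skin was. In TAp63 KO against WT SCC, 1 was called, but 0 with the 6-library filter, the compared groups alone or the covariate, 2 without trend or robust settings, and 1 to 13 with 1 library left out. In TAp63 KO against WT skin 0 were called, but 22 with library weights and 0 to 2 with 1 library left out, and in the interaction 0 to 11. The 13 and the 11 came when WT SCC replicate 2 was dropped. The cause was not tested. The averaged effect and the interaction need all 4 groups and had no fit of fewer. Where a library left out leaves 1 WT tumour, that tumour is assumed to vary like the other groups. No paired analysis was possible because the numbers in the sample titles only count the libraries of a tissue, and no label ties a library of 1 group to a library of another. Without counts, differences near the floor, which touch only miR-31-3p in skin, are understated.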
